A study of Mus musculus with 2 samples.

Results

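The respiratory chain genes of single mouse aortic cells were chosen by symbol: the mitochondrial mt-Nd, mt-Cytb, mt-Co and mt-Atp genes, and the nuclear Nduf, Sdha to Sdhd, Uqcr, Cox4 to Cox8 and Atp5 genes. They numbered 109 of the 19357 genes with at least 1 count, 13 encoded by mitochondrial DNA and 96 by nuclear DNA. Each library held 108 of them, since Cox7b2 had 1 count in the control library only and Cox8c 1 count in the diabetic library only. All 109 had a position in the GENCODE M21 annotation of GRCm38.

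The study asked how diabetes alters the cells of an atherosclerosis-prone aorta. All mice were male Apoe -/- animals on C57BL/6, aged 17 weeks, so the controls also lacked apolipoprotein E. The diabetic group received streptozotocin, which destroys insulin-producing cells, at 55 mg/kg daily on 5 days from 6 weeks of age, and the control group received citrate, with 10 weeks of follow-up. Blood glucose is not given in the sources used here. Aortae of 4 mice per group were minced, digested at 37 °C, pooled by group and warmed again, and live cells were then sorted on calcein, a dye that living cells keep, and 7AAD, which enters dead ones. Each group was thus 1 library of pooled mice (10x Genomics 3′ v2), no replicate exists, and no test between the groups was possible. Intervals below are exact 95% intervals that cover counting error only.

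The respiratory chain lies in the inner mitochondrial membrane. Complexes I and II pass electrons from NADH and succinate to ubiquinone, complex III passes them to cytochrome c and complex IV to oxygen. Complexes I, III and IV pump protons and complex V, the ATP synthase, uses the gradient to make ATP. Complexes I, III, IV and V are built from subunits of both genomes, while complex II is wholly nuclear, and vascular smooth muscle, fibroblasts and macrophages differ in how much they rely on respiration.

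The deposited annotation put 3060 control and 2524 diabetic barcodes into 13 classes, with medians of 3760 and 4477.5 unique molecular identifiers (UMIs, each a captured molecule) per cell. The 7 classes with at least 50 cells in both libraries were smooth muscle (VSMCs-1 and VSMCs-2), fibroblasts (Fib-1, Fib-2 and Fib-3), endothelial cells (ECs) and macrophages (Mac). In each of them the summed level of its own marker list was above that of every other list except the erythroid one, and no own marker was at 0. Haemoglobin genes took 0.217% of the annotated control UMIs and 1.14% of the diabetic ones, with the widest gap in Fib-1, at 0.252% and 4.61%. The libraries shared 15 barcodes, 8 of them annotated in both.

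In sums over cells, the 13 mitochondrial genes took 3.13% of the control UMIs and 4.32% of the diabetic UMIs, a ratio of diabetic to control of 1.38 (1.375 to 1.387). Their share was highest in smooth muscle in both libraries. In VSMCs-2 it was 4.73% in control and 5.57% in diabetic cells, a ratio of 1.18 (1.168 to 1.184). VSMCs-1 stood at 4.61% and 4.71%, and its ratio of 1.02 had an interval that held 1 (0.9996 to 1.043). Diabetic smooth muscle was thus higher in VSMCs-2, beyond counting error, and not separable from control in VSMCs-1.

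The fibroblast classes were spread over a wide range. Fib-1 had 3.76% of its control and 4.09% of its diabetic UMIs in mitochondrial genes, Fib-2 2.77% and 3.23%, and Fib-3 1.73% and 2.26%. The ratios were 1.09 in Fib-1 (1.065 to 1.112), 1.17 in Fib-2 (1.154 to 1.176) and 1.31 in Fib-3 (1.271 to 1.342). Fib-3, the lowest of all 13 classes in the control library, had the highest ratio of the 7 classes. ECs stood at 2.67% in the control library and 2.99% in the diabetic one, with a ratio of 1.12 (1.102 to 1.139), and Mac at 2.41% and 2.97%, with a ratio of 1.23 (1.217 to 1.25). No class reached a ratio of 1.5.

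The pooled ratio of 1.38 lay above all 7 class ratios, and the libraries differed in make-up: VSMCs-2, rich in these transcripts, made up 496 control cells and 856 diabetic cells. With the class shares of UMIs held to those of the control library, the ratio was 1.17. A value over all annotated cells therefore also carries this difference in class make-up. Among the 6 smaller classes, B Cells stood at 2.54% in 28 control and 3.49% in 30 diabetic cells. Mono, with 9 control and 19 diabetic cells, went the other way, at 2.46% and 2.05%. The top control cell of each gene held 35.9% of the mt-Atp6 UMIs and 52.4% of the mt-Nd1 UMIs of Mono. In the diabetic library these were 9.89% and 9.44%.

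The 96 nuclear genes together took a similar portion of UMIs, 2.45% in control and 2.68% in diabetic cells, and their difference within classes was small. VSMCs-2 stood at 3.15% and 3.07% (ratio 0.973, 0.9654 to 0.9812) and VSMCs-1 at 3.23% and 3.16% (0.979, 0.9542 to 1.004). Fib-1 held 2.35% and 2.12% (0.904, 0.8781 to 0.9313) and Fib-2 2.24% and 2.22% (0.988, 0.9769 to 0.9994). Fib-3 stood at 2.29% and 2.15% (0.938, 0.9137 to 0.9629), ECs at 2.61% and 2.51% (0.960, 0.9427 to 0.9767) and Mac at 1.94% and 2.09% (1.08, 1.059 to 1.092). Mac was thus the 1 class of the 7 with a higher nuclear sum in the diabetic library. These sides depended on the scaling in every class but Fib-1. With mitochondrial, ribosomal protein and haemoglobin genes left out of the totals, the ratio was 1.011 in VSMCs-2, 1.027 in VSMCs-1, 1.037 in Fib-2, 1.014 in Fib-3 and 1.004 in ECs, and with trimmed mean scaling it was 0.99 in Mac. The mitochondrial ratio was above 1 in all 7 classes under both of these scalings. With the class shares of the control library in both, the nuclear ratio over all annotated cells was 0.990, against 1.09 as pooled.

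**Figure D1:**
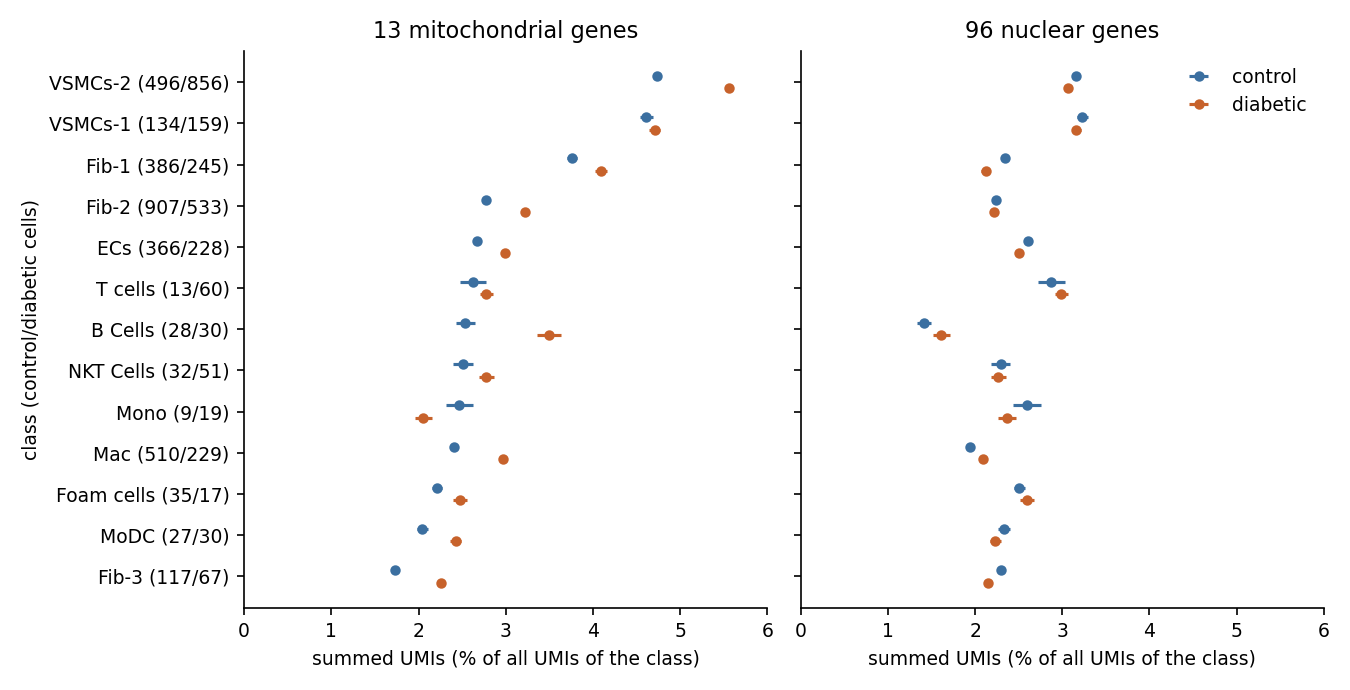
Summed UMIs of the 13 mitochondrial genes (left) and the 96 nuclear genes (right) as a percentage of all UMIs, for the 13 annotated classes, with the number of control and diabetic cells in brackets; points are the single library of each group and bars exact 95% intervals of counting error. VSMCs-2 has a mitochondrial share of 4.73% in control and 5.57% in diabetic cells and Fib-3 one of 1.73% and 2.26%, while the nuclear points of a class lie close together.

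The balance of the 2 genomes was compared directly. VSMCs-2 had 1.501 mitochondrial UMIs for each nuclear respiratory chain UMI in the control library and 1.81 in the diabetic one, a ratio of 1.21 (1.196 to 1.221). Fib-3 had 0.753 and 1.05, a ratio of 1.39 (1.341 to 1.446), and VSMCs-1 had 1.43 and 1.49, a ratio of 1.04 (1.009 to 1.078). This balance uses no other gene for scaling, and it was higher in the diabetic library in all 7 classes, with ratios of 1.203 in Fib-1, 1.18 in Fib-2, 1.17 in ECs and 1.15 in Mac. Haemoglobin and ribosomal protein UMIs differed between the groups too: ribosomal proteins took 14.2% and 15.3% of UMIs in VSMCs-2, 18.5% and 21.9% in Fib-3, and 17.8% and 22.5% in Mac. The part of either in the mitochondrial difference was not tested beyond the alternative scalings.

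The share was also read in single cells. The median share of mitochondrial UMIs in a VSMCs-2 cell was 4.59% in control (quartiles 3.66% and 5.63%) and 5.50% in diabetic cells (4.54% and 6.64%). In Fib-3 the medians were 1.63% and 2.34%, in Mac 2.28% and 2.67%, and in VSMCs-1 4.49% and 4.67%. The quartile ranges of both libraries overlapped in all 4 of these classes. Cells with a share over 8% made up 10 of 496 VSMCs-2 in control (2.02%) and 56 of 856 in diabetic (6.54%), and 2 of 510 Mac in control (0.392%) and 8 of 229 in diabetic (3.49%).

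**Figure D2:**
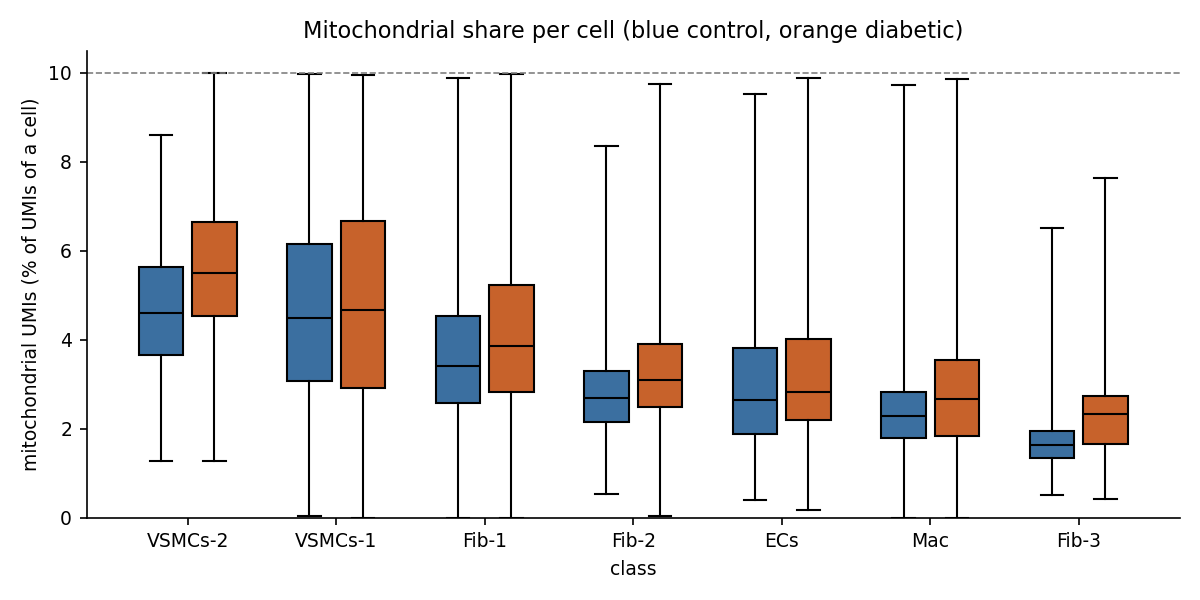
Percentage of a cell's UMIs from the 13 mitochondrial genes in the 7 classes with at least 50 cells per library; boxes show quartiles and median over cells, whiskers the lowest and highest cell, and the dashed line 10%. No annotated cell lies above 10%, and the diabetic median is above the control median in each class, by the most in VSMCs-2.

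No annotated cell exceeded 10% (highest 9.97% in control and 9.99% in diabetic), so these values describe cells below a ceiling. Within bands of depth, among VSMCs-2 with 4000 to 8000 UMIs, the mitochondrial share was 4.80% in 388 control and 5.63% in 654 diabetic cells. Mac with fewer than 2000 UMIs went the other way, with 3.02% in 50 control and 2.53% in 60 diabetic cells, and so did VSMCs-1 below 2000 UMIs, with 4.82% in 62 and 4.55% in 72 cells, and Fib-2 with 8000 UMIs or more, with 2.91% in 19 and 2.43% in 15 cells.

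All 13 protein genes of mitochondrial DNA were detected, and their transcripts are cut from long polycistronic precursors. Neighbouring genes overlap, and a read in the shared stretch belongs to both. The longest same-strand overlap, shown because it limits what a count of mt-Atp8 can mean, is the 43 bases at the end of mt-Atp8 and the start of mt-Atp6, with the start codon of mt-Atp6 in its first 3 bases.

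mt-Atp8 and mt-Atp6 overlap, chrM:7927-7969, plus strand, GRCm38: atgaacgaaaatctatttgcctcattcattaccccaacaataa

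mt-Nd4l and mt-Nd4 share 7 bases, and mt-Nd5 shares 14 with mt-Nd6 on the opposite strand. Whether the counting used strand is not given in the sources used here, and how reads of that stretch were assigned was not checked. These genes are set beside each other as UMIs only, since how well each transcript was captured was not measured.

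In complex I, mt-Nd1, a core subunit near the ubiquinone site, had 3326 CPM (UMIs scaled to the same library total) over all annotated control cells and 4940 over diabetic cells. Within VSMCs-2 it stood at 5238 and 6630 CPM (ratio 1.27, 1.242 to 1.29), and within Fib-3 at 2022 and 2863 CPM (1.42, 1.309 to 1.531). Its interval lay above 1 in all 7 classes, with ratios from 1.10 to 1.42. mt-Co2, the complex IV subunit that takes electrons from cytochrome c, was the other gene with all 7 intervals above 1, from 1.115 to 1.328.

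A difference was called where CPM differed at least 1.5-fold, the interval of the ratio excluded 1, and both libraries together held at least 10 UMIs. Over all annotated cells 2 of the 13 mitochondrial genes were called, both higher, where 18% of all 14529 genes were called, 8.48% higher and 9.55% lower. These were mt-Nd2, at 1029 CPM in control and 1637 in diabetic (1.59, 1.555 to 1.626), and mt-Nd3, at 252 and 386 CPM (1.53, 1.464 to 1.604). Within classes their ratios ran from 1.12 to 1.32 for mt-Nd2 and from 0.730 to 1.36 for mt-Nd3, so neither was called in any of the 7, and in cells of 2000 to 6000 UMIs neither was called over all annotated cells (1.456 and 1.383). mt-Nd3 in Fib-1, at 301 CPM in control and 220 in diabetic (0.730, 0.5452 to 0.9696), was the 1 mitochondrial gene and class whose interval lay below 1.

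The only class call was mt-Atp8 in ECs, with 44 control and 55 diabetic UMIs, or 40.3 and 64.4 CPM (1.60, 1.057 to 2.435), which was not called in cells thinned at random to 1000 UMIs each (2.04, 0.9326 to 4.564). mt-Atp6, the proton channel subunit of complex V and the most abundant of the 13 by UMIs, stood at 12303 CPM in diabetic and 10635 in control VSMCs-2 (1.16, 1.141 to 1.173). In VSMCs-1 its ratio was 0.981. mt-Nd6, the 1 gene on the other strand, had 81 UMIs in each library (ratio 1.05, 0.7599 to 1.443), too few to read within classes.

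**Figure D3:**
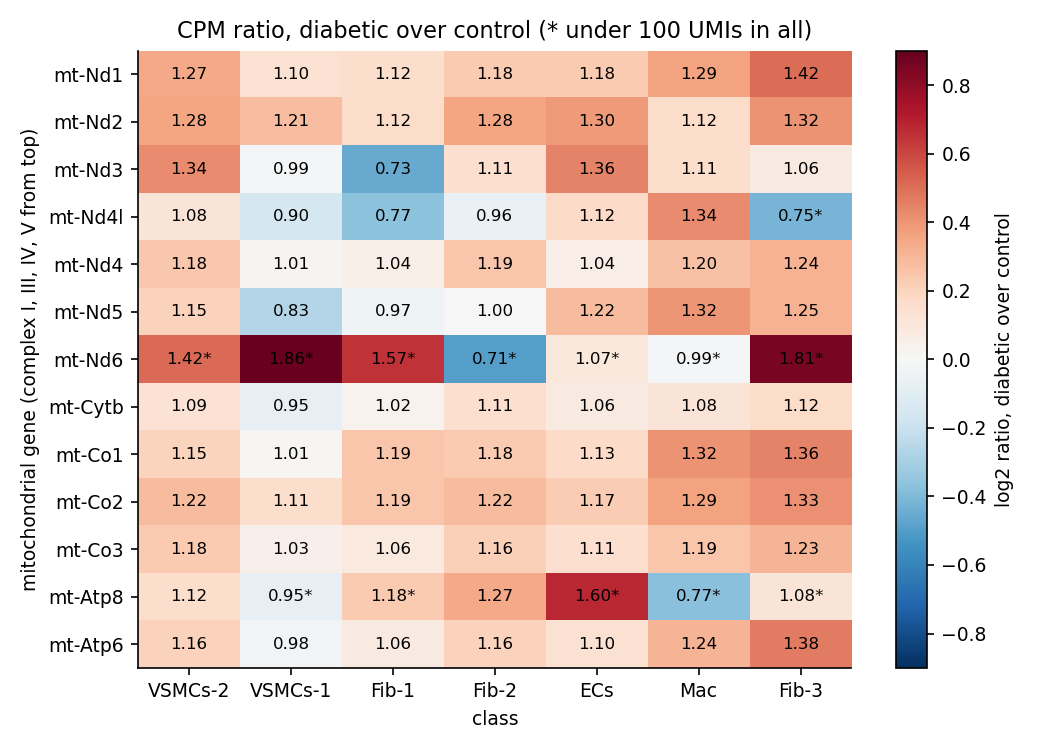
Ratio of CPM, diabetic over control, for the 13 mitochondrial genes (rows) in the 7 classes (columns); colour gives the log2 ratio, and an asterisk marks fewer than 100 UMIs over both libraries. mt-Nd1 and mt-Co2 are above 1 in every column (1.10 to 1.42 and 1.115 to 1.328), and mt-Cytb is among the palest rows (0.95 to 1.12).

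The genes did not all differ by the same factor. mt-Cytb, the mitochondrial subunit of complex III, made up 12.7% of the mitochondrial UMIs of VSMCs-2 in control and 11.8% in diabetic. In Mac it made up 8.72% and 7.65%, and in Fib-3 10.2% and 8.80%. Its portion was lower in the diabetic library in all 7 classes, with the interval below 1 in 6 of them (ratio of portions 0.861 to 0.951), all from the same pair of libraries. The portion of mt-Nd1 was higher in all 7, with the interval above 1 in 4, and that of mt-Co2 was higher in all 7, with the interval above 1 in 5. Complex I transcripts as a sum had a ratio of 1.24 in VSMCs-2, against 1.09 for complex III, 1.18 for complex IV and 1.16 for complex V. Complex I was also highest in VSMCs-1, Fib-2 and ECs. Complex IV was above it in Fib-1 (1.14 against 1.073) and Mac (1.263 against 1.231), and complex V in Fib-3 (1.382 against 1.322).

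Nuclear members differed little one by one. Over all annotated cells 94 of the 96 had at least 10 UMIs, 2 were called higher and 2 lower, or 4.26%, against 18% of all genes. The median log2 ratio was 0.10, against 0.02 for all genes. In VSMCs-2, 1 of 91 was called higher and 3 lower, beside 4.33% and 4.08% of all genes (8.41% in all). In VSMCs-1, 1 of 86 was higher and 0 lower, beside 2.54% and 3.77% of all genes (6.3%). Among fibroblasts, 0 of 87 were higher and 2 lower in Fib-1, beside 2.76% and 3.92% (6.68%), 1 of 90 higher and 1 lower in Fib-2, beside 5.19% and 3.69% (8.89%), and 1 of 87 higher and 2 lower in Fib-3, beside 3.53% and 4.39% (7.92%). In ECs, 2 of 86 were higher and 2 lower, beside 4.11% and 3.24% (7.36%), and in Mac 2 of 89 higher and 2 lower, beside 8.16% and 4.54% (12.7%). Across the classes 17 members were called in at least 1, and the share of all genes called in at least 1 class was not counted. The share of nuclear members called was below that of all genes in every class. It was 1.16% in VSMCs-1, 2.3% in Fib-1 and 2.22% in Fib-2. Unchanged genes in simulated data were called there at 2.64%, 2.62% and 2.18%. For Fib-3 the members and the unchanged genes stood at 3.45% and 2.74%, for VSMCs-2 at 4.4% and 1.89%. ECs stood at 4.65% and 2.67%, and Mac at 4.49% and 2.42%. The simulated share covers all genes with at least 10 UMIs and was not matched to the UMIs of the members. It is thus no error rate for the members, and which single calls come from counting error alone was not tested.

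Small differences leaned by class. In VSMCs-2 the interval of the ratio lay below 1 for 27 nuclear members and above it for 9 (29.7% and 9.89%, beside 11.1% and 9.85% of all genes), and the median log2 ratio was -0.06, against 0.01 for all genes. In Mac it lay above 1 for 24 and below for 5 (27.0% and 5.62%, beside 12.0% and 7.88% of all genes), with a median of 0.08, which was also the median of all genes there. Fib-1 had 9 members below and 0 above (10.3% and 0%, beside 5.56% and 4.02% of all genes), with a median of -0.17 against -0.07. The side of the nuclear sum turned with the scaling in VSMCs-2 and Mac. In Fib-1 it stayed below 1, at 0.9136 to 0.9692 over the alternatives. How many members lay on each side under other scalings is not given here.

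**Figure D4:**
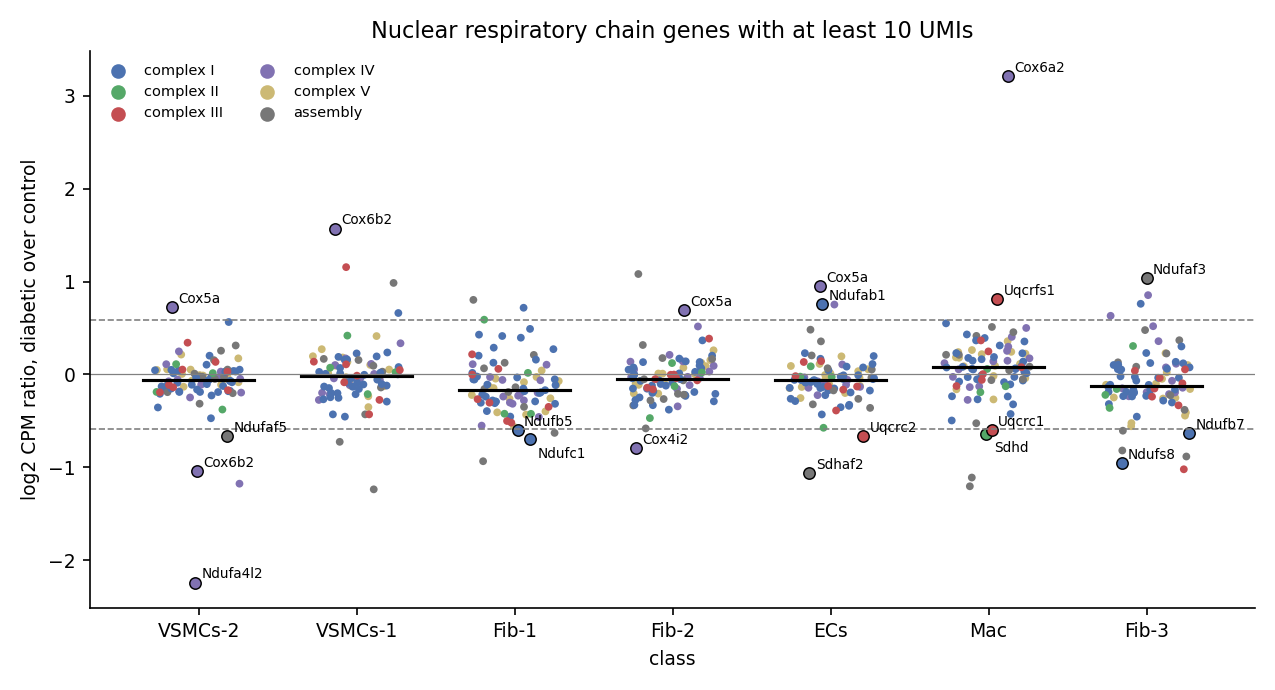
Log2 ratio of CPM, diabetic over control, for each nuclear respiratory chain gene with at least 10 UMIs in 7 classes, coloured by complex; thick lines are medians, dashed lines a 1.5-fold difference, and outlined, named points were called. Most points lie within 1.5-fold, and Cox5a is named above the upper line in VSMCs-2, Fib-2 and ECs.

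Promoters of the nuclear members were read because factors such as NRF1, the ETS protein GABP and YY1 are known to act at many of them. RefSeq windows of GRCm38.p6, from 250 bases before to 50 after a start, matched 80 of the 96 nuclear members in 85 windows. The NRF1 motif, its own reverse complement and shown in capitals in the sequences, was in 8.24% of the member windows and 0.966% of all 32817 windows. Its core GCATGCGC, which lies inside that motif, was in 14.1% and 2.71%. On either strand the ETS motif CCGGAAG was in 24.7% and 8.855%, and the YY1 core ATGGCGGC in 10.6% and 2.24%. The 21230 windows of protein-coding genes had higher shares than all windows. These were 1.32% for the NRF1 motif, 3.51% for its core, 11.56% for ETS and 3.015% for the YY1 core. A match is a string of letters and not a bound site.

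The bases before the start are shown for Cox5a, the member called in most classes, and for 2 holders of the NRF1 motif, Ndufa11 and Ndufaf4. Capitals mark the NRF1 motif. None of these letters lay in the windows of Cox5a or Ndufab1.

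Cox5a, chr9:57520982-57521231, plus strand: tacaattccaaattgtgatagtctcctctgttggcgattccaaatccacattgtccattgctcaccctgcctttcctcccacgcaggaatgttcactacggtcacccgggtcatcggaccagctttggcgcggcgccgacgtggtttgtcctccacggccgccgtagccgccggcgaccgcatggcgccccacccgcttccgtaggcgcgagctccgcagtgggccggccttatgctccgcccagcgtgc
Ndufa11, chr17:56717512-56717761, plus strand: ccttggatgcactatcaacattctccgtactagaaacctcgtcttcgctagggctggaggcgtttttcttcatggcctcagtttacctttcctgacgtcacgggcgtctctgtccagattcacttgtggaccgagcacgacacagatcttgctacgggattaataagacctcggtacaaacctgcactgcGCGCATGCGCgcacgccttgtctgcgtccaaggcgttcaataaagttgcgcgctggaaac
Ndufaf4, chr4:24897833-24898082, plus strand: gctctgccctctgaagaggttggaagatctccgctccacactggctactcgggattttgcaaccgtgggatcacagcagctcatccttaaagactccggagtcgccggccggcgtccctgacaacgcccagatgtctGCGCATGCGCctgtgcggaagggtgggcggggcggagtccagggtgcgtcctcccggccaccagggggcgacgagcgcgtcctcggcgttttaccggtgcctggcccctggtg

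Ndufa11, a complex I subunit, had 317 CPM in control and 412 in diabetic cells (1.30, 1.244 to 1.354), above each of its class ratios (0.817 to 1.24, above 1 in 3 of 7). Ndufaf4, a complex I assembly factor, had 29.1 and 29.2 CPM (1.00, 0.8609 to 1.163), with class ratios from 0.742 to 1.40.

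By complex, the nuclear sum of complex IV in Mac was 5391 CPM in control and 5963 in diabetic (1.11, 1.074 to 1.139), complex V 5213 and 5676 (1.09, 1.057 to 1.122), and complex II 431 and 377 (0.875, 0.7812 to 0.9795). Complex II in Mac thus went against the others. In Fib-3 complex V stood at 6072 and 5364 CPM (0.883, 0.8384 to 0.9306), and in Fib-1 complex V at 5516 and 4904 CPM (0.889, 0.836 to 0.945). In VSMCs-2 the ratios of the 5 complexes lay between 0.956 and 0.990.

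In complex I, Ndufa13 and Ndufa2, accessory subunits with the most UMIs, had 6872 control and 6939 diabetic UMIs and 6097 and 6923 UMIs, or ratios of 1.06 (1.022 to 1.093) and 1.19 (1.149 to 1.231) over all annotated cells. Their class ratios ran from 0.802 to 1.115 for Ndufa13, below 1 in 5 of 7, and from 0.912 to 1.28 for Ndufa2, above 1 in 4. Ndufab1, the mitochondrial acyl carrier protein, which is both a complex I subunit and a carrier for fatty acid synthesis, was called higher. It stood at 58.7 CPM in control and 100.3 in diabetic cells, from 727 and 1187 UMIs (1.71, 1.558 to 1.878). In ECs it stood at 54.0 and 91.4 CPM (1.69, 1.191 to 2.415), the 1 class in which it was called though not after thinning, and in VSMCs-2 at 85.2 and 125.9 CPM (1.48, 1.275 to 1.72). Its ratio was above 1 in all 7 classes, with the interval above 1 in 4, but thinned cells gave 0.980 in Fib-1 and 0.952 in Fib-2.

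Other complex I subunits were lower in 1 class each. Ndufc1 in Fib-1 had 395 CPM in control and 244 in diabetic (0.617, 0.4714 to 0.802), and its interval lay below 1 in 3 classes. Ndufb5 in Fib-1 had 291 and 193 CPM (0.661, 0.4857 to 0.8909). The haemoglobin share of Fib-1 was 0.252% and 4.61%, and with totals that left out haemoglobin, mitochondrial and ribosomal protein genes the ratios were 0.662 for Ndufc1 and 0.709 for Ndufb5, the latter short of 1.5-fold. Ndufb5 kept its call in 1 of 7 alternatives with an interval and Ndufc1 in 5. In Fib-3, Ndufs8, a core subunit with iron-sulfur clusters, had 107 and 55.4 CPM (0.516, 0.306 to 0.8383), from 77 and 22 UMIs, and Ndufb7 234 and 151 CPM (0.645, 0.4723 to 0.8715). Ndufs8 kept its call in 5 of the 7 and Ndufb7 in 4, without it under the scaling without mitochondrial, ribosomal protein and haemoglobin genes (0.698).

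In complex II, Sdhb, the iron-sulfur subunit, had 183 CPM in control and 173 in diabetic cells (0.943, 0.8881 to 1.002), and Sdha, the flavoprotein, 126 and 126 CPM (1.00, 0.9322 to 1.076), each below 1 in 5 of 7 classes (0.722 to 1.34 and 0.858 to 1.01). Sdhd, a membrane anchor, was called lower in Mac, at 79.9 and 51.3 CPM (0.643, 0.4719 to 0.8634), and its interval lay below 1 in 3 of the 7 classes. The Mac call was lost under that scaling (0.690) and after thinning (0.691). Sdhc, the other anchor, had a ratio above 1 in all 7 classes (1.02 to 1.51), with every interval holding 1.

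In complex III, Uqcrh, the hinge protein, had 609 CPM in control and 687 in diabetic cells (1.13, 1.093 to 1.164), and Uqcrb 567 and 564 CPM (0.996, 0.963 to 1.03). The class ratios of Uqcrh ran from 0.987 to 1.19, above 1 in 4 of 7. Within classes, as scaled to all UMIs, Uqcrb had a ratio below 1 in all 7, from 0.810 in Fib-1 to 0.960 in Mac, with the interval below 1 in 4. Uqcrc1, a core protein, was called lower in Mac, at 155 and 103 CPM (0.662, 0.5336 to 0.8152), though not under the scaling without mitochondrial, ribosomal protein and haemoglobin genes (0.711) or after thinning (0.844). Uqcrfs1, the Rieske iron-sulfur protein, was called higher in Mac, at 19.1 and 33.6 CPM from 50 and 38 UMIs (1.76, 1.123 to 2.738), a call kept in 5 of 7 alternatives. Uqcrc2, the other core protein, was called lower in ECs, at 148 and 93.7 CPM (0.632, 0.4774 to 0.8313), but cells thinned to 1000 UMIs gave 1.06.

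In complex IV, Cox4i1 and Cox6c had the most UMIs. Cox4i1 stood at 1116 CPM in control and 1349 in diabetic cells (1.21, 1.181 to 1.236) and Cox6c at 768 and 880 CPM (1.15, 1.115 to 1.179). Within classes Cox4i1 ran from 0.960 to 1.16, with the interval above 1 in 3, and Cox6c from 0.873 to 1.13, below 1 in 5 of 7. Cox5a, a small subunit on the matrix side, was the member called in most classes. Its levels were 53.2 CPM in control and 88.0 in diabetic VSMCs-2, from 148 and 503 UMIs (1.65, 1.375 to 2.001). In Fib-2 they were 33.3 and 53.9 CPM, from 121 and 114 UMIs (1.62, 1.243 to 2.109), and in ECs 61.3 and 118.3 CPM, from 67 and 101 UMIs (1.93, 1.403 to 2.669). The calls in VSMCs-2 and ECs were kept in 7 of 7 alternatives with an interval, and that in Fib-2 in 6, with 1.30 after thinning (0.7499 to 2.234).

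In Mac, Cox5a stood at 70.7 and 100 CPM (1.42, 1.109 to 1.797), short of 1.5-fold. In VSMCs-1, Fib-1 and Fib-3 the intervals held 1, with ratios of 1.26, 1.08 and 1.43. Its share of cells with a UMI was 25.2% in control and 43.5% in diabetic VSMCs-2, at median depths of 5547 and 6523 UMIs. Of the 85 nuclear members with at least 10 UMIs in all 7 classes, 3 had a ratio above 1 in every class (Cox5a, Ndufab1 and Sdhc) and 3 a ratio below 1 in every class (Cox6b1, Ndufb3 and Uqcrb). Under the scaling without mitochondrial, ribosomal protein and haemoglobin genes the former 3 were above 1 in 7 classes and the latter 3 below 1 in 6, and with trimmed mean scaling Sdhc was above 1 in 6. Other alternatives also crossed 1: Cox5a was 0.787 in Fib-1 in cells of 2000 to 6000 UMIs and 0.873 in Fib-3 after thinning, and Ndufab1 was 0.885 in Fib-1 in cells of 2000 to 6000 UMIs. The share of all genes with a ratio on 1 side in every class was not counted. All classes come from the same 2 libraries, so a difference between the libraries and one between the groups cannot be told apart.

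In complex V, Atp5l, a membrane subunit, had 778 CPM in control and 847 in diabetic cells (1.09, 1.058 to 1.119), and Atp5e, the epsilon subunit, 610 and 686 CPM (1.12, 1.088 to 1.159). Each was above 1 in 4 and below 1 in 3 of the 7 classes (0.916 to 1.18 and 0.834 to 1.28). No nuclear complex V gene was called in any of the 7 classes. Its c-ring is made from 3 genes for 1 protein. Atp5g1 held 55.4% of the c-ring UMIs in control Fib-1 (50.4% to 60.3%) and 32.0% in control Mac (29.9% to 34.0%). Atp5g2 held 26.3% in control Fib-1 and 51.5% in control ECs. The diabetic portions of Atp5g1 in Fib-1 and Mac were 56.0% and 32.3%, so Fib-1 held the higher portion in both libraries.

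The tissue-restricted subunits are given as portions of their pair. Ndufa4l2, an oxygen-responsive paralog of the complex IV subunit Ndufa4, lay at chr10:127514967-127517154 on the plus strand. Its UMIs were 42.8% of those of both paralogs in control Fib-2 (41.0% to 44.6%) and 39.6% in diabetic Fib-2 (37.1% to 42.2%). In Fib-1 the portions were 39.1% and 35.4%, and in Fib-3 4.95% and 8%. In ECs, Mac and both smooth muscle classes the portion was at most 1.03% in either library. Ndufa4l2 thus set Fib-1 and Fib-2 apart from Fib-3 and from the other classes in both libraries.

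As a level, Ndufa4l2 had 350 CPM in control and 276 in diabetic Fib-2, from 1274 and 584 UMIs (0.788, 0.7133 to 0.8698). In Fib-1 it had 397 and 289 CPM (0.728, 0.5655 to 0.9319). After each cell was thinned to 1000 UMIs, 29.7% of 907 control and 23.6% of 533 diabetic Fib-2 cells held a UMI of it (59.3% and 52.5% unthinned). The same share was 0.292% of 343 control ECs and 0 of 220 diabetic ECs, the latter with an exact upper bound of 1.66%. Unthinned median depths in control and diabetic cells were 3770 and 3656 UMIs in Fib-2 and 2867 and 3504 in ECs.

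Over all annotated cells Ndufa4l2 was called lower, at 123.5 and 60.0 CPM (0.486, 0.4439 to 0.5315), while Fib-2 numbered 907 control and 533 diabetic cells. The difference within Fib-2 was thus smaller than the pooled one. In VSMCs-2 it was called lower on 23 and 10 UMIs (0.212, 0.08991 to 0.4623), with 34.8% of the control UMIs in 1 cell. Pericyte markers (Kcnj8, Abcc9, Rgs5 and Notch3, all 4 detected) summed to 335 and 541 CPM in Fib-2 and to 1093 and 2124 CPM in VSMCs-2, higher in the diabetic library, and their part in these values was not tested.

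Cox4i2, the oxygen-responsive paralog of Cox4i1, held 5.82% of their UMIs in control and 2.98% in diabetic Fib-2, 5.89% and 5.26% in VSMCs-1, and 2.17% and 1.70% in VSMCs-2. It was at most 0.228% in Fib-3, ECs and Mac. In Fib-2 its level was called lower, at 55.0 and 31.7 CPM from 200 and 67 UMIs (0.576, 0.43 to 0.763). A single control cell held 17.0% of those UMIs, 8.16% of control and 9.94% of diabetic Fib-2 cells had a UMI of it, and without the 5% of cells with most UMIs the ratio was 1.229. The lower Cox4i2 level in diabetic Fib-2 thus turned to a higher one without the deepest cells.

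Cox6b2, known from testis, held 7.53% of the Cox6b UMIs in control and 10.7% in diabetic Fib-2 and 2.85% and 1.60% in VSMCs-2. Its level in VSMCs-2 was 17.6 CPM in control and 8.57 in diabetic cells, from 49 UMIs in each library (0.487, 0.3208 to 0.7385). In VSMCs-1 it was 15.4 and 45.9 CPM from 5 and 20 UMIs (2.97, 1.081 to 10.12), with 40% and 30% of the UMIs in 1 cell, and it was not called once those cells were left out. The smooth muscle classes thus went opposite ways on small counts. Cox7a1, the muscle form of Cox7a, held 2.87% of the Cox7a UMIs in control and 2.16% in diabetic Mac, and at most 0.730% in the other 6 of the 7 classes except diabetic Fib-1, where it had 3 UMIs. Cox6a2 in Mac had 2 control and 12 diabetic UMIs, 75% of the latter in 1 cell, and Cox8b over all annotated cells had 17 control and 6 diabetic UMIs, 35.3% of the former in 1 cell.

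**Figure D5:**
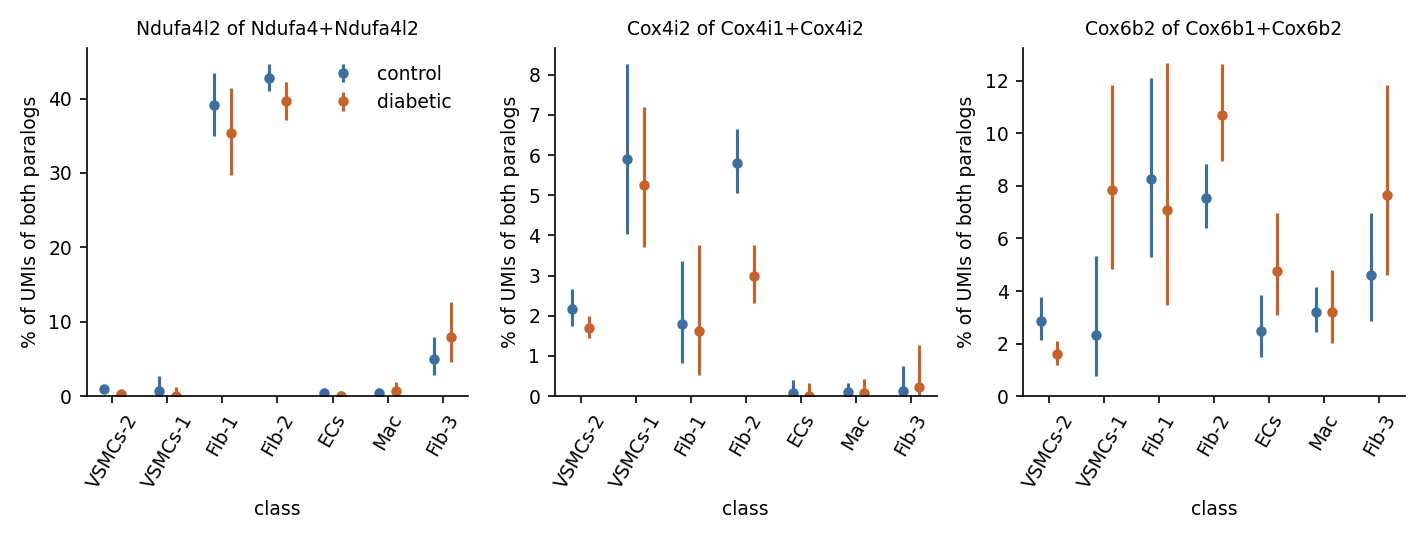
Portion of UMIs from the tissue-restricted paralog of 3 complex IV subunits (Ndufa4l2, Cox4i2 and Cox6b2) in 7 classes, with exact 95% intervals of counting error. Ndufa4l2 holds 42.8% and 39.6% in Fib-2 and 4.95% and 8% in Fib-3, and Cox4i2 in Fib-2 is 5.82% in control and 2.98% in diabetic cells.

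Among the 14 assembly and accessory factors, Ndufaf5, needed for complex I assembly, was called lower in VSMCs-2, at 19.4 CPM in control and 12.2 in diabetic (0.631, 0.4361 to 0.9172). Sdhaf2, which helps attach the flavin to Sdha, was called lower in ECs, at 58.6 and 28.1 CPM from 64 and 24 UMIs (0.480, 0.2871 to 0.7783). Ndufaf3, another complex I factor, was called higher in Fib-3, at 30.7 and 63.0 CPM from 22 and 25 UMIs (2.05, 1.111 to 3.82), but in cells of 2000 to 6000 UMIs the ratio was 1.01. Each was called in 1 class, and the calls of Ndufaf5 and Sdhaf2 were lost in cells of 2000 to 6000 UMIs.

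Other mitochondrial lists were read beside the chain, as counts of members called higher and lower in VSMCs-2, where 4.33% and 4.08% of all genes were called, and in Mac, where 8.16% and 4.54% were. Of the mitochondrial ribosome, 5 of 77 were higher and 0 lower in VSMCs-2, and 4 and 0 of 77 in Mac. Of the import machinery, 1 and 0 of 22 were called in each, of the tricarboxylic acid cycle 0 and 0 of 16 in VSMCs-2 and 2 and 2 of 16 in Mac. Quality control had 1 and 1 of 17 in VSMCs-2 and 1 and 0 of 17 in Mac. Biogenesis regulators had 1 and 1 of 11 in VSMCs-2 and 1 and 0 of 10 in Mac, and fusion and fission genes 0 of 8 in both. Electron carriers had 0 of 8 in VSMCs-2 and 1 and 1 of 8 in Mac, the mitochondrial DNA and RNA machinery 0 and 2 of 21 and 1 and 0 of 18, and chain factors outside the symbols above 1 and 0 of 30 and 1 and 0 of 27. Carriers had 1 and 0 of 8 in VSMCs-2 and 0 of 8 in Mac, and superoxide and peroxide removal 0 of 8 in both.

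Some genes of these lists were called in more than 1 class, and those below were picked from the called ones. The share of all genes called in more than 1 class was not counted. All classes come from the same 2 libraries, and these calls were not put through the alternative settings. Tomm20, a receptor of protein import, had 31.6 CPM in control and 51.6 in diabetic VSMCs-2 (1.63, 1.282 to 2.095), and was also called higher in Fib-2 (1.962), ECs (1.90) and Mac (2.03). Slc25a3, the phosphate carrier that feeds the ATP synthase, had 281 and 481 CPM in VSMCs-2 (1.71, 1.581 to 1.856) and was called in ECs (1.54). Pink1, a kinase of mitochondrial quality control, had 47.4 and 78.7 CPM in VSMCs-2 (1.66, 1.364 to 2.03) and was called higher in Fib-3 (2.34) and ECs (1.69). Cyc1, the cytochrome of complex III, was called higher in Fib-3 (1.98) and Mac (1.59). Against these, Hspd1, the matrix chaperonin, was called lower in VSMCs-2, at 206 and 119 CPM (0.577, 0.5153 to 0.6457), with further calls in Fib-1 (0.4375) and VSMCs-1 (0.582). Of the chain factors outside the symbols above, Cox17 was called lower in Fib-1 (0.478) and Fib-3 (0.456). Cox20 was called lower in VSMCs-1 (0.565) and Fib-1 (0.4925). Ucp2, an uncoupling protein homologue, was lower in Fib-2 (0.559) and higher in ECs (1.99).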

How the data were processed

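Mouse aortic cells of 2 libraries, each 1 pool of 4 mice, were measured with the 10x Genomics 3′ v2 chemistry, per the labels' protocols. The deposited counts are raw UMIs in a matrix of genes by barcodes, and the submitters' processing notes list Cell Ranger 3.1.0, Partek and mm10. The annotation release, the barcode filter, the treatment of multi-mapped reads and of strand are not given in the sources used here, and genes with near-identical copies are uncertain. Classes are those of the deposited annotation. No doublet caller was run, and no annotated cell had over 10% mitochondrial UMIs.

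UMIs were summed per class and library over all annotated cells and divided by the class total (12390769 control and 11833577 diabetic UMIs in all). A gene absent from a matrix was taken as 0. Poisson and Clopper-Pearson intervals (scipy 1.17.1) cover 95% of counting error only. A difference was called at 1.5-fold with an interval that excluded 1 and at least 10 UMIs over both libraries. All 13 mitochondrial genes, the 2 most abundant nuclear genes of each complex, paralogs, and called genes with at least 30 UMIs were named, at most 5 each way per class. Sdhc, Cox6b1, Ndufb3, Ndufa11, Ndufaf4, Cox8b, Cox6a2 and Cox7b2 were named after their values were seen. The members and lists were chosen with earlier results of these data known. Trimmed mean scaling used edgeR 4.0.16. The interval code was tested on simulated data: over 14527 genes of all annotated cells, the intervals held the true ratio for 95.9%, and 86.7% of genes changed 2-fold were called. Of unchanged genes, 1.21% were called over all annotated cells. Within classes this share ran from 1.89% in VSMCs-2 to 2.74% in Fib-3.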

Additional observations from a re-analysis of the deposited data

Results flagged for a closer look

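The nuclear sum stood on opposite sides of 1 in different classes. The ratio of diabetic to control was 1.075 in Mac, and 0.9596 in ECs, 0.9043 in Fib-1, 0.9881 in Fib-2, 0.938 in Fib-3 and 0.9732 in VSMCs-2, each scaled to all UMIs and with an interval that excluded 1. Other scalings turned the side in 5 of these classes. With 1 library per group the difference between classes was not tested.

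Cox6b2 was called lower in VSMCs-2, with a ratio of 0.4867 from 49 and 49 UMIs, and higher in VSMCs-1, with a ratio of 2.969 from 5 and 20 UMIs. The difference between the 2 smooth muscle classes was not tested.

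Barcodes without a class, which enter no comparison, carried mitochondrial signal. Of those with at most 50% haemoglobin UMIs, 150 of 1126 control barcodes (13.3%, 11.4% to 15.5%) and 324 of 447 diabetic barcodes (72.48%, 68.1% to 76.6%) had over 10% mitochondrial UMIs. Over 50% were found in 32 control and 181 diabetic barcodes. The difference between the libraries was not tested.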

How the results depend on the processing

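No paired analysis was possible because each group is 1 library and the labels give no replicate number, and no replicate could be left out. The mitochondrial ratio stayed above 1 in 59 of 59 alternatives (1.02 to 1.46), 42 of them outside the counting interval of the reported value. The nuclear ratio crossed 1 in 11 of 59 (0.906 to 1.16 over all), in 7 of them from a reported interval that excluded 1. Of 565 alternatives of 71 ratios of named genes, 20 crossed 1, 16 of them from an interval that held 1 and 1 from Ndufab1 in Fib-2 (0.952 when thinned), which was not called. The other 3 were of called genes: Cox4i2 in Fib-2 gave 1.185 in cells of 2000 to 6000 UMIs and 1.229 without the 5% of cells with most UMIs, and Uqcrc2 in ECs gave 1.063 when thinned. The Cox4i2 portion of control Fib-2 was 4.895% without its top cell. The cause of each shift was not tested. Few UMIs per gene limit the smaller classes: of genes changed 2-fold in simulated data, 50.6% were called in Fib-1 and 81.7% in VSMCs-2. Of unchanged genes, 2.62% were called in Fib-1 and 1.89% in VSMCs-2.

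Scaled without mitochondrial, ribosomal protein and haemoglobin genes the mitochondrial ratio was 1.325 in Mac, 1.071 in VSMCs-1, 1.411 in Fib-3, 1.172 in ECs, 1.459 in all cells, 1.166 in Fib-1, 1.222 in VSMCs-2 and 1.223 in Fib-2. With trimmed mean scaling it was 1.136 in Mac, 1.044 in VSMCs-1, 1.369 in all cells, 1.197 in VSMCs-2 and 1.138 in Fib-2. In cells of 2000 to 6000 UMIs it was 1.348 in Mac, 1.081 in VSMCs-1, 1.175 in ECs, 1.274 in all cells, 1.157 in Fib-1 and 1.19 in Fib-2. Thinned to 1000 UMIs per cell it was 1.211 in Mac, 1.37 in Fib-3, 1.303 in all cells, 1.129 in Fib-1 and 1.187 in VSMCs-2. With equal weight per cell it was 1.205 in Mac, 1.076 in ECs, 1.284 in all cells, 1.113 in Fib-1 and 1.192 in VSMCs-2. Without cells over 1% haemoglobin it was 1.044 in VSMCs-1, 1.347 in Fib-3, 1.394 in all cells, 1.132 in Fib-1 and 1.191 in VSMCs-2. Without the 5% of cells with most UMIs it was 1.387 in Fib-3, 1.397 in all cells, 1.118 in Fib-1, 1.191 in VSMCs-2 and 1.19 in Fib-2. Over all barcodes with at most 50% haemoglobin it was 1.428 in all cells. With the control class make-up in both libraries, chosen after seeing the data, it was 1.171 in all cells. With the diabetic class make-up in both, also chosen then, it was 1.165 in all cells.

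Scaled without mitochondrial, ribosomal protein and haemoglobin genes the nuclear ratio was 1.155 in Mac, 1.027 in VSMCs-1, 1.014 in Fib-3, 1.004 in ECs, 1.155 in all cells, 0.9692 in Fib-1, 1.011 in VSMCs-2 and 1.037 in Fib-2. With trimmed mean scaling it was 0.99 in Mac, 1.084 in all cells, 0.9908 in VSMCs-2 and 0.965 in Fib-2. Thinned to 1000 UMIs per cell it was 1.109 in Mac, 1.009 in VSMCs-1, 0.9064 in Fib-3 and 1.072 in all cells. With equal weight per cell it was 1.139 in Mac, 1.024 in VSMCs-1, 1.071 in all cells and 0.941 in Fib-1. In cells of 2000 to 6000 UMIs it was 1.045 in all cells and 0.9351 in Fib-1. Without cells over 1% haemoglobin it was 1.103 in all cells, 0.9464 in Fib-1 and 0.984 in VSMCs-2. Over all barcodes with at most 50% haemoglobin it was 1.077 in all cells. With the control class make-up in both libraries, chosen after seeing the data, it was 0.9904 in all cells. With the diabetic class make-up in both, also chosen then, it was 0.9808 in all cells. Without the 5% of cells with most UMIs it was 0.9576 in Fib-1.

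Nuclear genes called numbered, higher and lower, 2 and 2 over all cells, 1 and 3 in VSMCs-2, 1 and 0 in VSMCs-1, 0 and 2 in Fib-1, 1 and 1 in Fib-2, 1 and 2 in Fib-3, 2 and 2 in ECs, and 2 and 2 in Mac. Counts that differed from these by over 1.5 times follow. The share of all genes is not given beside them, so they do not show whether members were called more often than other genes. At a minimum of 30 UMIs the counts were higher 1 in Mac and 0 in VSMCs-1, and lower 1 in all cells. At 2-fold the counts were higher 1 in Mac, 0 in ECs, 0 in all cells, 0 in VSMCs-2 and 0 in Fib-2, and lower 0 in Mac, 0 in Fib-3, 1 in ECs, 0 in Fib-1 and 0 in Fib-2. At 1.2-fold the counts were higher 14 in Mac, 2 in Fib-3, 12 in all cells, 2 in VSMCs-2 and 4 in Fib-2, and lower 5 in Mac, 3 in VSMCs-1, 7 in Fib-3, 8 in ECs, 5 in all cells, 9 in Fib-1, 7 in VSMCs-2 and 8 in Fib-2. At any size with an interval that excludes 1 the counts were higher 24 in Mac, 3 in Fib-3, 47 in all cells, 9 in VSMCs-2 and 7 in Fib-2, and lower 5 in Mac, 3 in VSMCs-1, 8 in Fib-3, 12 in ECs, 11 in all cells, 9 in Fib-1, 27 in VSMCs-2 and 17 in Fib-2. Scaled without mitochondrial, ribosomal protein and haemoglobin genes the counts were higher 4 in Mac, 3 in Fib-3, 2 in VSMCs-2 and 3 in Fib-2, and lower 0 in Mac, 1 in Fib-3, 1 in all cells and 1 in Fib-1. In cells of 2000 to 6000 UMIs the counts were higher 1 in Mac, 0 in Fib-3, 1 in Fib-1 and 2 in VSMCs-2, and lower 1 in all cells, 4 in Fib-1 and 0 in Fib-2. Without each gene's top cell the counts were higher 1 in Mac, 0 in VSMCs-1 and 2 in Fib-3, and lower 4 in Fib-3, 1 in all cells and 2 in Fib-2. At a minimum of 1 UMI the counts were higher 2 in Fib-3. Without the 5% of cells with most UMIs the counts were higher 2 in Fib-3, and lower 1 in Fib-1 and 0 in Fib-2. With trimmed mean scaling the counts were higher 2 in VSMCs-2, and lower 1 in Fib-1 and 2 in Fib-2.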

Other observations

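Ucp1, the uncoupling protein of brown fat, had 1 UMI over all annotated control cells and 25 over diabetic cells, 72% of the latter in 1 cell. Of these, 19 lay in VSMCs-1, where the control library had 0. Adipocyte markers summed to 534 CPM in control and 413 in diabetic VSMCs-1, against 33.1 and 60.9 CPM in VSMCs-2. Mterf1a, of the mitochondrial transcription machinery, had 39 control and 12 diabetic UMIs over all annotated cells (ratio 0.322, 0.1536 to 0.6281), and Glrx2, a mitochondrial glutaredoxin, 287 and 497 UMIs (1.81, 1.565 to 2.104) and a ratio of 2.04 in Fib-2.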
